A study of Mus musculus with 11 samples.

Results

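The 9 genes described here encode enzymes or enzyme subunits of the tricarboxylic acid (TCA) cycle, and were chosen by name as Cs, Idh3a, Idh3b, Idh3g, Ogdh, Dlst, Sucla2, Suclg1 and Fh1. They are 9 of the 22104 genes in the deposited table, and all 9 passed the filter on low values. Their transcripts were measured by RNA sequencing in primary myoblasts, the dividing precursors of muscle fibres, from TA muscle of C57BL/6 mice of about 8 weeks. The cells were wild-type or Bmal1-/- and spent their last 6 h at 21% oxygen (normoxia) or 1% oxygen (hypoxia), which gave 2 wild-type normoxia, 3 Bmal1-/- normoxia, 3 wild-type hypoxia and 3 Bmal1-/- hypoxia libraries. All cultures shared Ham's F-10 medium containing 20% fetal bovine serum and bFGF at 2.5 ng/ml. Bmal1 (gene symbol Arntl) encodes the partner of CLOCK in the circadian clock. The labels give neither the deleted part of Bmal1 nor the origin of each library from separate cultures or animals. The p-values thus set each difference only against the spread between these libraries, and that spread may be technical.

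The TCA cycle runs in the mitochondrial matrix and oxidises acetyl groups to carbon dioxide, passing the electrons to NAD and FAD for the respiratory chain. Citrate synthase (Cs) joins acetyl-CoA to oxaloacetate, and the NAD-dependent isocitrate dehydrogenase, made of the catalytic subunit Idh3a with Idh3b and Idh3g, carries out the first oxidative decarboxylation. The 2-oxoglutarate dehydrogenase complex follows, with Ogdh as its E1 and Dlst as its E2 component, the latter carrying lipoate and forming succinyl-CoA. Succinyl-CoA ligase pairs the alpha subunit Suclg1 with the beta subunit Sucla2 (ADP-forming) or Suclg2 (GDP-forming), and fumarate hydratase (Fh1) turns fumarate into malate. In low oxygen, cells are known to divert pyruvate away from the cycle through the HIF target Pdk1, a kinase that inhibits pyruvate dehydrogenase.

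Dlst was the member whose transcript fell in hypoxia, and its promoter is shown here with that of Ogdh, the other component of the same complex among the members. RefSeq sequences of GRCm38.p6, from 250 bases before to 50 bases after the listed start, matched 8 of the 9 members and not Idh3a. Capitals mark every match, on either strand, to the E-box CACGTG, bound by CLOCK and BMAL1, the hypoxia response element cores ACGTG and GCGTG, the NRF1 core GCATGC, the ETS and GABP motif CCGGAAG, the ERR half-site AAGGTCA, the SP1 box GGGCGG and the NF-Y box CCAAT. The E-box and ACGTG overlap. Ogdh has 6 listed starts, and the one printed is the fourth, which lies on the plus strand at chr11:6291920-6292219 and holds an E-box beginning 110 bases before the start. The Dlst promoter lies on the plus strand at chr12:85110583-85110882.
Dlst: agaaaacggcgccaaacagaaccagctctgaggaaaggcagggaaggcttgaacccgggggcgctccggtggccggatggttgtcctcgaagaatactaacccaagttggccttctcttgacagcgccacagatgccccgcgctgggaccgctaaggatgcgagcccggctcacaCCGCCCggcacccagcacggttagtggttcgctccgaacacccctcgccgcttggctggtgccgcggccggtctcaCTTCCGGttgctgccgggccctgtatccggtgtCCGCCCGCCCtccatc
Ogdh, start 4: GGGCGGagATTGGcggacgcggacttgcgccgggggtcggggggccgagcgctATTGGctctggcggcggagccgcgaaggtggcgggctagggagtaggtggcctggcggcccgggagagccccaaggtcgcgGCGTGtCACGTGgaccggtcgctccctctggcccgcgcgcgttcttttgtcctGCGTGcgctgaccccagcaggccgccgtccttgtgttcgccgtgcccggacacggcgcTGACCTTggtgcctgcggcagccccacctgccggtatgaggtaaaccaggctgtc

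The Dlst window held no match to the E-box or to either hypoxia response element core. It held 1 ETS and GABP match on the minus strand, at base 2 after the start, and SP1 boxes on the minus strand that began at base -75, 35 and 39. An E-box was found in 3 of the 6 Ogdh windows, where the overlapping windows of starts 5 and 6 hold the same site. At the first listed start, Ogdh included, it was found in 0 of 8 members, against 7.24% of the first promoters of 27025 genes. For ACGTG the count was 2 of 8 (19.7% of all), for GCGTG 4 of 8 (32.5%), for the NRF1 core 0 of 8 (7.94%) and for the ERR half-site 0 of 8 (4.66%). The ETS and GABP motif was found in 3 of 8 (9.12%), in Idh3b, Idh3g and Dlst, the SP1 box in 5 of 8 (35.9%) and the NF-Y box in 4 of 8 (37.9%). These are letter matches in a window of 300 bases and say nothing of binding.

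Libraries held 18707697 to 33613328 reads assigned to genes, and every hypoxia library (at least 23027613) was deeper than every normoxia library (at most 21451760). Mitochondrially encoded genes took 22.128 to 24.438% of the reads. Arntl was lower in knockout cells by a log2 difference of -1.29 in normoxia and -1.31 in hypoxia, and reads on it remained. The HIF targets Pdk1, Ldha, Slc2a1 and Bnip3 all rose in both genotypes, by 0.66 to 2.85 on the log2 scale, and Slc2a1 was lower in knockout cells averaged over oxygen levels (-0.272, limma adjusted p = 0.0120, lost at 0.0548 without trend). Of 10 myoblast markers, 9 passed the filter, among them Myod1 at 7793 to 9502 and Pax7 at 1123 to 1595 normalized reads, while Msc stayed at 0 to 3.11. The summed endothelial markers reached at most 41.2, the leukocyte markers 39.6 and the Schwann cell markers 41.2 normalized reads. Summed fibroblast markers were 2827 to 3714 in wild-type and 1420 to 2358 in knockout libraries. All 6 tested members were called lower in knockout cells averaged over oxygen levels, where 17.2% of all genes were called in either direction. Differentiated muscle markers summed to 16590 to 22010 in wild-type and 26400 to 30660 in knockout libraries. Pericyte or smooth muscle markers summed to 28140 to 33070 in wild-type and 25070 to 28470 in knockout libraries. Most of that sum was the smooth muscle actin Acta2, at 23910 to 32290, which cultured myoblasts also express.

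Transcripts of all 9 enzymes were detected in every library, and their level and spread across libraries were not compared with those of other genes. Together they made up 0.0976 to 0.106% of each library's reads. A member's highest library was between 1.08 times (Cs) and 1.24 times (Sucla2) its lowest, over both genotypes and both oxygen levels. Each value rested on at least 958 reads, so that counting error alone was 1.1 to 3.23% of a value. Values are normalized reads, that is, reads divided by 1 size factor per library.

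Levels between genes were compared per kilobase of exon. Cs had the highest mean level, 2018 normalized reads per kb (1925 to 2071 over the 11 libraries), and its range met that of no other member. Dlst followed at 1417 (1339 to 1508), Idh3b at 1268 (1200 to 1343) and Idh3g at 1264 (1189 to 1376), and these 3 ranges overlapped. Idh3a at 1005 (955.3 to 1059), Fh1 at 923.4 (868.6 to 1019) and Sucla2 at 909.1 (826.5 to 1022) formed a second overlapping set. Suclg1 at 828.6 (720.0 to 867.1) overlapped with Sucla2. Ogdh, the partner of Dlst, was the lowest at 393.1 (363.3 to 433.1), below every value of the other 8 members. The lengths come from annotated coding transcripts, not from the isoforms used in these cells, and the order depends on them. Over all annotated exons Dlst is 9.559 kb long instead of 2.764, Ogdh 5.456 instead of 4.449 and Suclg1 4.617 instead of 1.519. With those lengths Suclg1 would be the lowest, not Ogdh, and Dlst would no longer follow Cs.

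**Figure D1:**
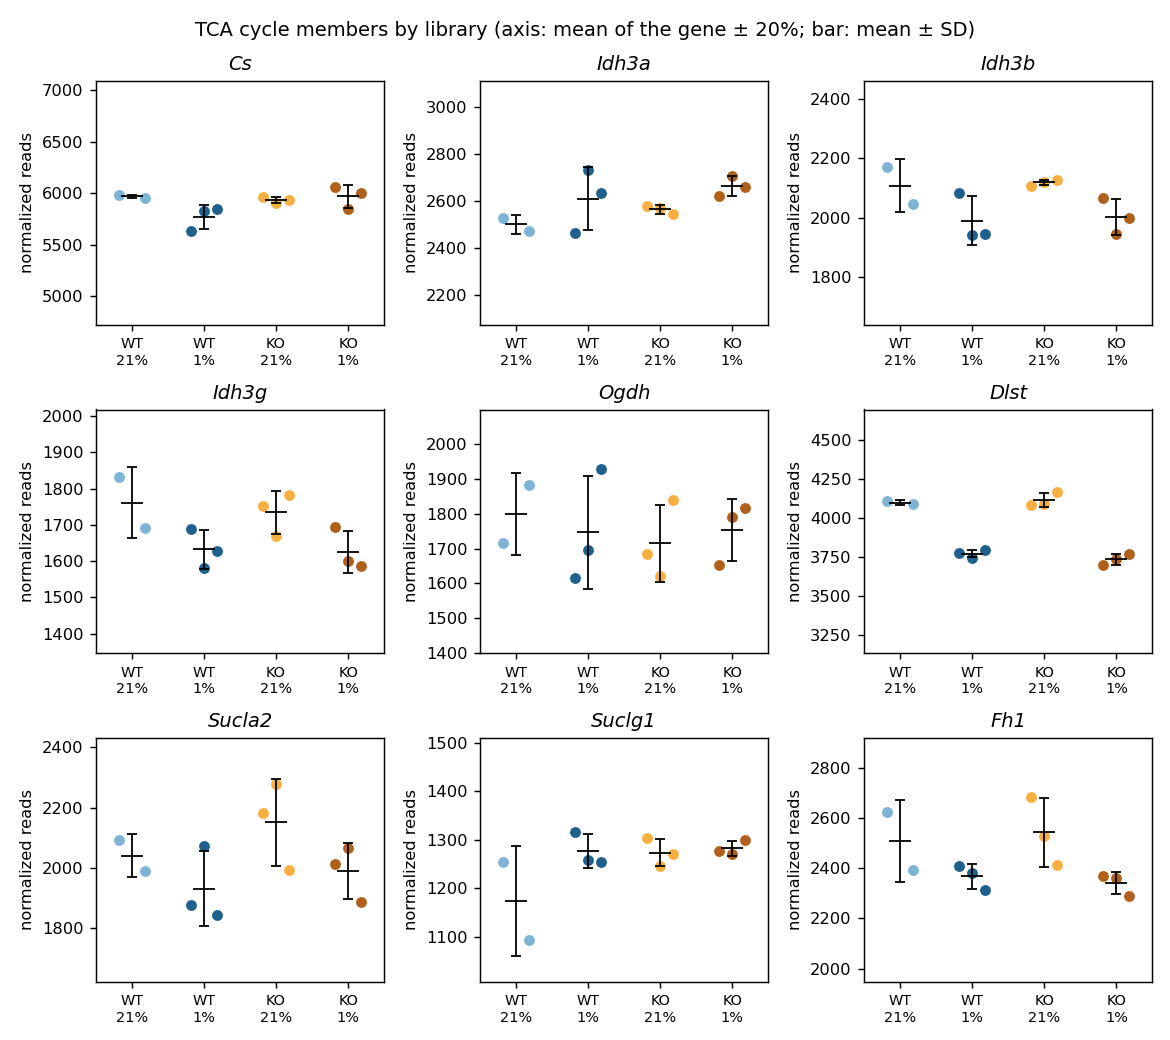
Normalized reads of each member (vertical axis, from 20% below to 20% above the gene's mean, so not from 0) in wild-type (WT) and Bmal1-/- (KO) cells at 21% and 1% oxygen, 1 point per library with the group mean ± SD. Dlst is the panel in which all 6 hypoxia libraries (3701 to 3795) lie below all 5 normoxia libraries (4087 to 4167).

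Low oxygen came with a called change in 1 of these 9 transcripts, Dlst. The comparison of hypoxia with normoxia asked how each genotype responded to 6 h of low oxygen. In wild-type cells 0 of 9 members passed limma's test at an adjusted p under 0.05, where 2.17% of the 14729 tested genes did. At an unadjusted p under 0.05 the count was 1 (Dlst), where 2000 of the 14729 tested genes passed. There edgeR and DESeq2 each called 0. In knockout cells 1 of 9 was called, Dlst, against 4.09% of all genes (0.937% lower), and edgeR and DESeq2 each called Dlst alone. Unadjusted, 2 members (Dlst and Fh1) had a p under 0.05 there, where 2584 of all tested genes did. With both genotypes averaged, again 1 of 9 was called, Dlst, against 7.45% of all genes (2.56% lower). Idh3b, Idh3g and Fh1 also had an unadjusted p under 0.05 in the averaged comparison, where 3213 of the 14729 tested genes did. The median log2 difference of the members was -0.082 in wild-type cells, -0.082 in knockout cells and -0.083 averaged, against -0.003, -0.005 and -0.003 over all tested genes. The sign was negative for 7, 5 and 7 of the 9.

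Scaling changed how many members passed. When libraries were scaled to the total of nuclear-encoded genes, 4 members were called lower in the averaged comparison: Idh3b, Idh3g, Dlst and Fh1. That scaling moved the median of all genes to -0.038, and calls over all genes went from 720 higher and 377 lower to 543 higher and 787 lower. In wild-type cells the split went from 251 higher and 69 lower to 206 and 119, and in knockout cells from 464 and 138 to 372 and 244.

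Dlst (ENSMUSG00000004789, chromosome 12, 85110833 to 85134845 in GRCm38, plus strand, protein-coding) encodes the E2 core of the 2-oxoglutarate dehydrogenase complex. Wild-type cells held 4111 and 4091 normalized reads in normoxia and 3774, 3747 and 3795 in hypoxia. In knockout cells the values were 4087, 4094 and 4167 at 21% oxygen, and at 1% they were 3701, 3735 and 3770. Every hypoxia library was below every normoxia library of either genotype. It was the one member for which this held, and 1.62% of tested genes were lower in this way. Group means were 4101 ± 14.2 (SD, n = 2) and 3772 ± 24.1 (SD, n = 3) in wild-type cells, and 4116 ± 44.3 (SD, n = 3) and 3735 ± 34.2 (SD, n = 3) in knockout cells. Dlst fell by 0.14 on the log2 scale in knockout cells (SE 0.034, 95% interval -0.212 to -0.068, limma adjusted p = 0.0318), a change of -9.25%. Averaged over genotypes it fell by 0.13 (SE 0.025, 95% interval -0.184 to -0.076, limma adjusted p = 0.00597), a change of -8.63%. In wild-type cells the difference was -0.12 (SE 0.037, limma adjusted p = 0.148). The 2 genotypes did not differ detectably in this response, with a difference of -0.020 and a 95% interval of -0.128 to 0.089.

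The averaged call held in each of the 20 alternatives run (adjusted p 0.000167 to 0.0347). The knockout call was lost without any 1 of the 6 knockout libraries, in limma without a variance trend and when knockout groups alone were fitted, with adjusted p of 0.0642 to 0.113. All hypoxia libraries were deeper than all normoxia libraries, and the part of depth in the Dlst result was not tested. Summed fibroblast markers were 3216 to 3714 in hypoxia against 2827 to 3326 in normoxia in wild-type cells, which overlap. In knockout cells they were 2068 to 2358 against 1420 to 1710. Most of each sum was the collagen gene Col1a1, at 874.5 to 2432 over all libraries. In wild-type hypoxia 0 of the 6 tested members were called. In knockout hypoxia 2 of 6 tested members, Col1a1 and Cd34, were called higher, as they were in the averaged comparison. Over all tested genes 2.17% were called in wild-type hypoxia, 4.09% in knockout hypoxia and 7.45% averaged, in either direction. Of 9 tested myoblast markers, 0 were called in wild-type hypoxia. At an unadjusted p under 0.05 there were 4 (Myod1, Des, Itga7 and Vcam1), where 2000 of the 14729 tested genes passed. In knockout hypoxia 1 of the 9, the adhesion molecule Vcam1, was called lower (-0.254), as it was averaged (-0.189). The sum of the myoblast markers was 52550 to 55020 in hypoxia against 56500 to 56860 in normoxia in wild-type cells, without overlap. In knockout cells it was 57990 to 59170 against 57960 to 60200. Of 5 differentiated muscle markers, 2, the differentiation factor Myog and the fusion protein Mymk, were called lower in averaged hypoxia (-0.249 and -0.271), and the sums overlapped between oxygen levels in each genotype. Of 4 tested pericyte or smooth muscle markers, 1 was called, the smooth muscle actin Acta2, which cultured myoblasts also express and which was lower in both genotypes. The other 3 had positive averaged estimates, among them Rgs5 at 0.174 and Notch3 at 0.349, and the list median was 0.261. The sum of this list, most of it Acta2, was 28140 to 29430 in hypoxia against 31810 to 33070 in normoxia in wild-type cells. In knockout cells the sum was 25070 to 25530 against 28090 to 28470, and the oxygen levels did not overlap in either genotype. The part of these markers in the Dlst result was not tested. In bulk RNA, fewer cells of a type and less RNA per cell cannot be told apart.

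**Figure D2:**
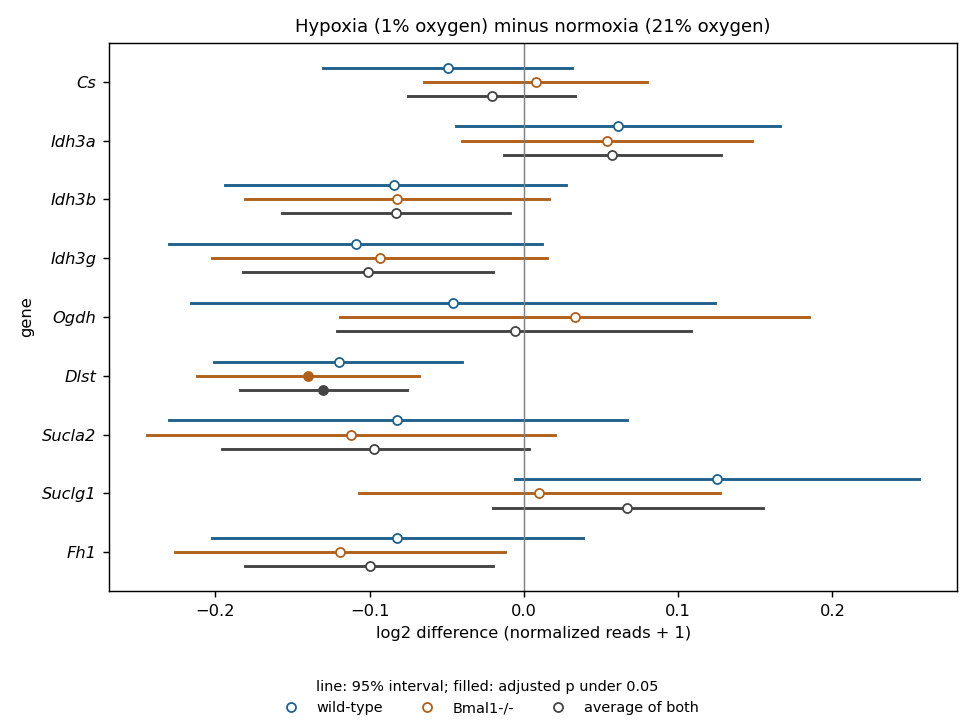
Log2 difference of hypoxia minus normoxia for each member (horizontal axis, on normalized reads + 1) in wild-type cells, Bmal1-/- cells and averaged over both, with 95% intervals as lines and filled points for an adjusted p under 0.05. The filled points are those of Dlst, at -0.14 in knockout cells and -0.13 averaged.

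Ogdh (ENSMUSG00000020456, chromosome 11, 6291633 to 6356642, plus strand), the E1 component that works with Dlst, did not pass in any comparison. Its libraries held 1716 and 1883 normalized reads in wild-type normoxia, 1616, 1695 and 1927 in wild-type hypoxia, 1684, 1622 and 1838 in knockout normoxia, and 1653, 1791 and 1816 in knockout hypoxia. The groups overlapped throughout, and the averaged hypoxia difference was -0.006 (95% interval -0.121 to 0.108). The ratio of Dlst to Ogdh reads was 2.17 to 2.53 in normoxia and 1.97 to 2.33 in hypoxia, which overlap. Dld, the E3 component that the complex shares with pyruvate dehydrogenase, differed by 0.035 in the averaged hypoxia comparison (limma adjusted p = 0.634).

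Citrate synthase had the smallest range of the 9 relative to its level. Cs (ENSMUSG00000005683, chromosome 10, 128337734 to 128362479, plus strand) held 5981 and 5957 normalized reads in wild-type normoxia, against 5632, 5826 and 5849 in wild-type hypoxia. Without Bmal1 the values were 5965, 5908 and 5938 at 21% oxygen and 6059, 5845 and 6003 at 1%. Wild-type hypoxia lay below wild-type normoxia without overlap, while the knockout groups overlapped. The differences were -0.049 (SE 0.037) in wild-type and 0.008 (SE 0.034) in knockout cells, and neither passed. A pseudogene copy of Cs, Gm48254, matches it at 92.1% identity over 469 bases and is not among the 22104 genes of the deposited table. How the authors' counting treated reads that match both is not known. No such copy was found for the other 8 members at 90% identity over at least 200 bases.

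None of the 3 isocitrate dehydrogenase subunits passed the test in hypoxia, and the estimate was positive for Idh3a and negative for Idh3b and Idh3g. Idh3a (ENSMUSG00000032279, chromosome 9, 54586334 to 54604661, plus strand), the catalytic subunit, held 2529 and 2473 normalized reads in wild-type normoxia, against 2465, 2733 and 2634 in wild-type hypoxia. Its knockout values were 2579, 2570 and 2544 at 21% oxygen, against 2621, 2706 and 2660 at 1%. The knockout hypoxia libraries were all above the knockout normoxia libraries, and the averaged difference was 0.057 (SE 0.033, limma adjusted p = 0.336).

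Idh3b (ENSMUSG00000027406, chromosome 2, 130279309 to 130284547, minus strand) held 2170 and 2045 normalized reads in wild-type normoxia, against 2084, 1940 and 1943 in wild-type hypoxia. Knockout cells had 2107, 2121 and 2126 at 21% and 2065, 1943 and 1997 at 1% oxygen, again without overlap but now lower in hypoxia. Its averaged difference was -0.083 (SE 0.034, limma adjusted p = 0.173). Idh3b shares 5 exonic bases with Nop56 on the opposite strand. Idh3g (ENSMUSG00000002010, chromosome X, 73778963 to 73786897, minus strand) held 1831 and 1692 in wild-type normoxia, 1688, 1582 and 1628 in wild-type hypoxia, 1751, 1669 and 1783 in knockout normoxia, and 1693, 1599 and 1586 in knockout hypoxia. For Idh3g it was the wild-type groups that did not overlap, and the averaged difference was -0.101 (SE 0.038, limma adjusted p = 0.131).

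The ratios between these subunits were computed within each library and carry no test. Idh3a over Idh3b was 1.17 to 1.22 in normoxia and 1.18 to 1.41 in hypoxia, and 1 hypoxia library, the first of the wild-type group, lay within the normoxia range. Idh3a over Idh3g was 1.38 to 1.54 in normoxia and 1.46 to 1.73 in hypoxia, with the same library inside the normoxia range. Idh3b over Idh3g, the pair of regulatory subunits, was 1.19 to 1.27 in normoxia and 1.19 to 1.26 in hypoxia.

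Neither subunit of the ADP-forming succinyl-CoA ligase passed the test in hypoxia. Sucla2 (ENSMUSG00000022110, chromosome 14, 73525319 to 73596142, plus strand) held 2091 and 1990 normalized reads in wild-type normoxia, 1876, 2073 and 1842 in wild-type hypoxia, 2183, 2277 and 1992 in knockout normoxia, and 2014, 2066 and 1885 in knockout hypoxia. Its groups overlapped in both genotypes, and the averaged difference was -0.097 (SE 0.046, limma adjusted p = 0.243). Suclg1 (ENSMUSG00000052738, chromosome 6, 73248382 to 73276911, plus strand) held 1254 and 1094 in wild-type normoxia, 1317, 1259 and 1255 in wild-type hypoxia, 1303, 1247 and 1270 in knockout normoxia, and 1277, 1270 and 1300 in knockout hypoxia. The second wild-type normoxia library, at 1094, was the lowest of the 11. The wild-type difference was 0.125 (SE 0.061, limma adjusted p = 0.394), which was 0.026 without that library and 0.223 without the other wild-type normoxia library. The ratio of Sucla2 to Suclg1 was 1.57 to 1.83 in normoxia and 1.42 to 1.65 in hypoxia. Sucla2 over Suclg2, the competing beta subunits, was 1.19 to 1.38 in normoxia and 1.22 to 1.34 in hypoxia.

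Fh1 (ENSMUSG00000026526, chromosome 1, 175600374 to 175625635, minus strand) held 2625 and 2393 normalized reads in wild-type normoxia, 2411, 2380 and 2314 in wild-type hypoxia, 2687, 2529 and 2415 in knockout normoxia, and 2369, 2361 and 2290 in knockout hypoxia. The knockout groups did not overlap. Differences were -0.082 (SE 0.056) in wild-type, -0.119 (SE 0.050, limma adjusted p = 0.232) in knockout cells and -0.100 (SE 0.037, limma adjusted p = 0.128) averaged. The wild-type value was -0.015 without the first wild-type normoxia library and -0.149 without the second, and the knockout value was -0.079 without the first knockout normoxia library. The gene body of Fh1 overlaps Kmo on the opposite strand, with 0 shared exonic bases.

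Counted over all members, hypoxia and normoxia libraries did not overlap for 4 of 9 in wild-type cells (Cs, Idh3g and Dlst lower, Suclg1 higher), where 29.8% of tested genes did not overlap. In knockout cells the count was also 4 of 9 (Idh3b, Dlst and Fh1 lower, Idh3a higher), against 22.6%. Dlst was the 1 gene present in both sets of 4. Over all 6 hypoxia and all 5 normoxia libraries the share of tested genes without overlap in either direction was 4.66%.

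The summed level of the 9 members was 23620 to 24350 normalized reads in the normoxia libraries and 22860 to 23450 in the hypoxia libraries, without overlap. With Dlst taken out, the sums were 19530 to 20260 and 19090 to 19750, which overlap.

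**Figure D3:**
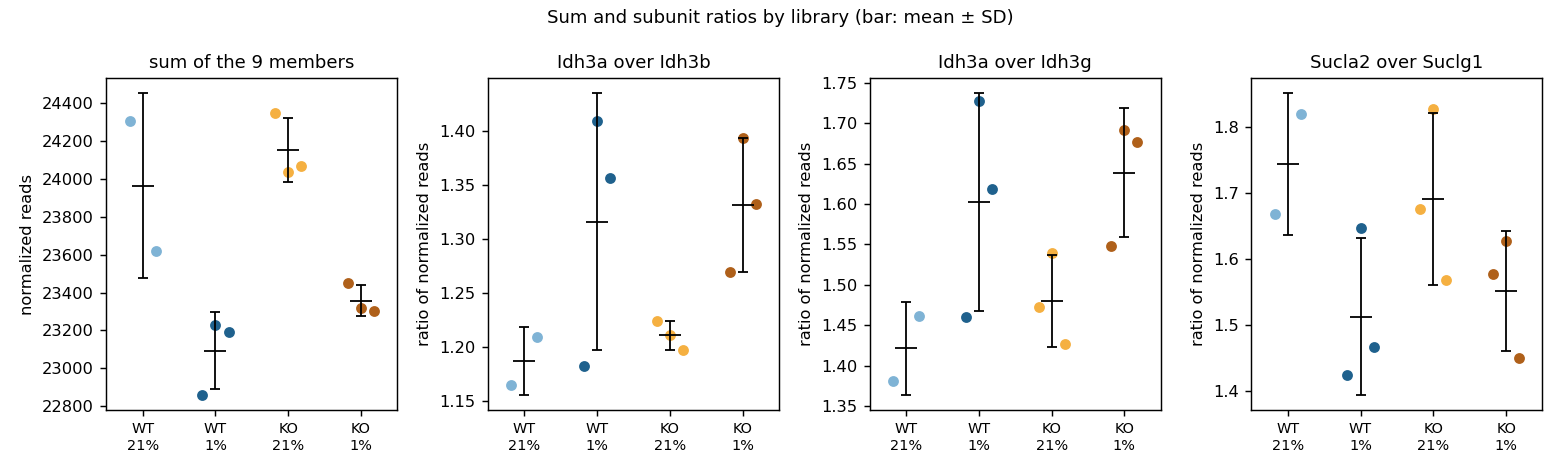
Sum of the 9 members (normalized reads) and 3 subunit ratios (no unit) in each library of the 4 groups, with the group mean ± SD, on axes that do not start at 0. The sum is at most 23450 in hypoxia and at least 23620 in normoxia, while each ratio overlaps between the oxygen levels.

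Loss of Bmal1 was not accompanied by a called change in any of the 9 members. In the comparison of knockout with wild-type cells, which asks what depends on the clock gene, 0 of 9 passed limma's test in normoxia, against 9.09% of all genes. In hypoxia 0 of 9 passed (8.95% of all genes), and averaged over oxygen levels 0 of 9 passed (17.2%). At an unadjusted p under 0.05 the count was 0 in each of these comparisons. Of the 14729 tested genes, 3451, 3089 and 4422 passed at that level, in the same order. In these comparisons edgeR and DESeq2 also called 0. The averaged differences ran from -0.031 (Ogdh, 95% interval -0.145 to 0.084) to 0.063 (Suclg1, -0.025 to 0.151), the latter 0.014 without the second wild-type normoxia library. The median of the members was 0.009, against 0.006 over all genes. Dlst differed by -0.004 (-0.059 to 0.050) and Cs by 0.021 (-0.033 to 0.075). Idh3a was the 1 member whose normoxia groups did not overlap between genotypes (38.4% of all genes), 0 of 9 were so in hypoxia (26.3%), and 0 of 9 over all knockout and all wild-type libraries (10.3%). In normoxia Suclg1 had the largest difference, 0.120 (limma adjusted p = 0.255), which was 0.022 without the second wild-type normoxia library.

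The hypoxia responses of the genotypes were compared directly by their difference. The limma test called 0 of 9 members, against 0.00679% of all genes, and edgeR and DESeq2 called 0. Unadjusted, 0 members had a p under 0.05, where 784 of the 14729 tested genes did. The differences (knockout minus wild-type response) ran from -0.114 for Suclg1 (95% interval -0.290 to 0.061) to 0.079 for Ogdh (-0.150 to 0.308). Both ends moved with single libraries: without the second wild-type normoxia library the Suclg1 value was -0.016 and the Ogdh value 0.012, and without the first they were -0.213 and 0.146. Over all 11 libraries left out in turn, the Ogdh value ran from 0.012 to 0.152. The interval of every member included 0.

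**Figure D4:**
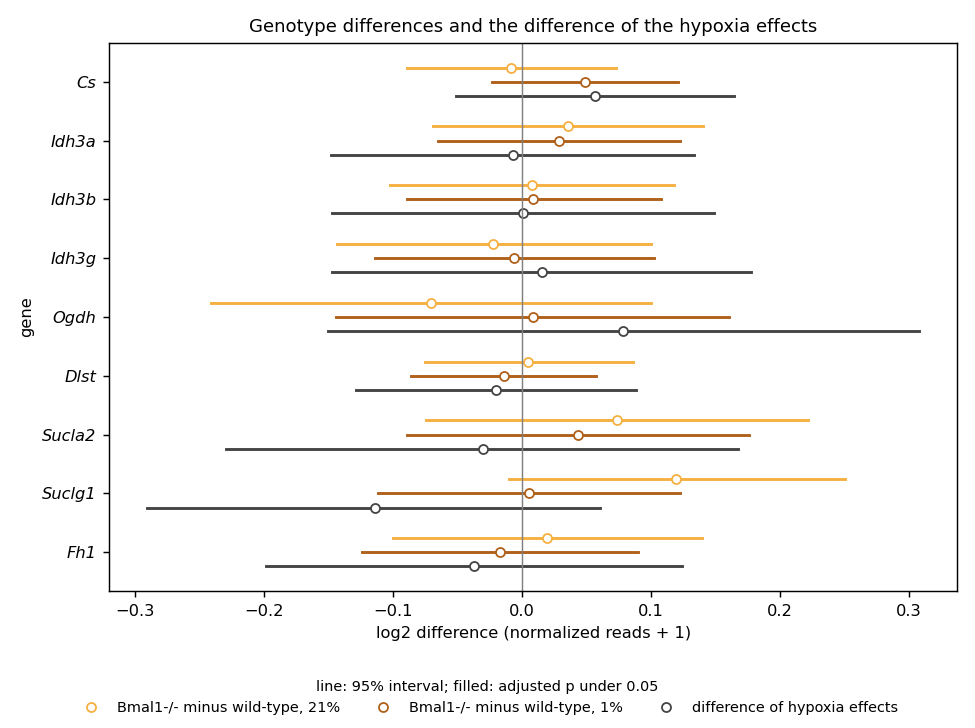
Log2 difference (horizontal axis, on normalized reads + 1) of Bmal1-/- minus wild-type cells at 21% and at 1% oxygen, and the knockout minus wild-type hypoxia effect, for each member with 95% intervals. No point is filled, since 0 of 9 members reached an adjusted p under 0.05, and the averaged genotype differences ran from -0.031 to 0.063.

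Of the other mitochondrial genes of the cycle and its isoforms, 9 are reported here from the same fits: Suclg2, Sdha, Sdhb, Sdhc, Sdhd, Mdh2, Dld, Ogdhl and Idh2. In hypoxia limma called 0 of these 9 in wild-type cells (0 at an unadjusted p under 0.05), 0 in knockout cells (2, Sdha and Sdhc) and 0 averaged (3, Suclg2, Sdha and Mdh2), and edgeR and DESeq2 each called 0 in all 3 comparisons. Over all genes limma called 2.17%, 4.09% and 7.45% in these comparisons. The median of the 9 was -0.009 averaged. Succinate dehydrogenase subunits Sdha, Sdhb, Sdhc and Sdhd and the malate dehydrogenase Mdh2 did not pass, with averaged differences of 0.090, -0.009, -0.068, -0.018 and 0.097.

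**Figure D5:**
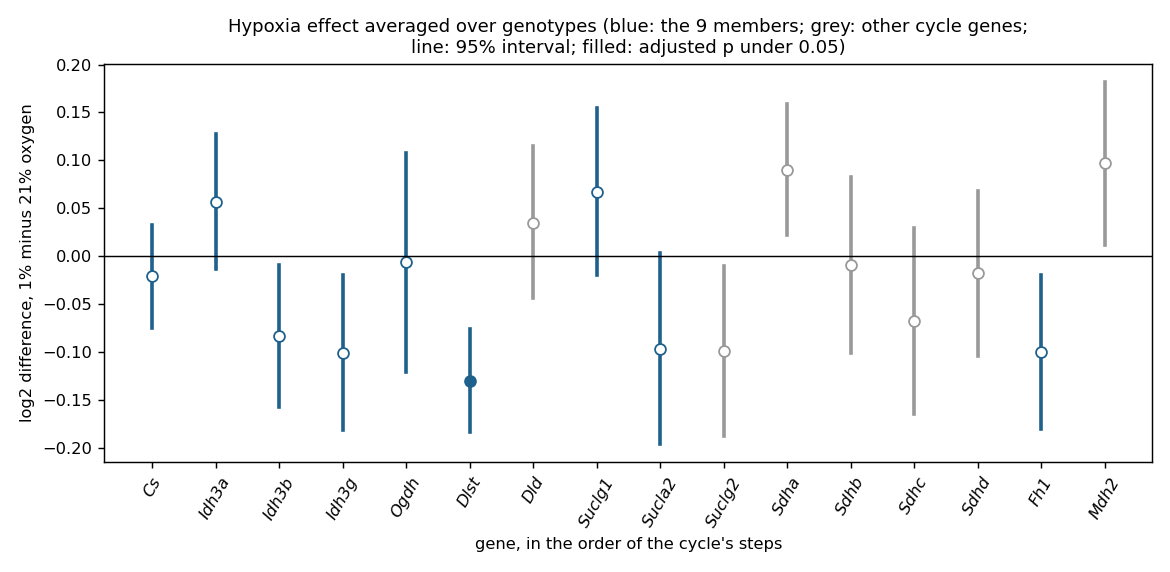
Log2 difference of hypoxia minus normoxia averaged over genotypes (vertical axis) for the 9 members in blue and 7 other genes of the cycle in grey, in the order of its steps, with 95% intervals and filled points for an adjusted p under 0.05. The filled point is that of Dlst, at -0.13.

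Between genotypes, Idh2 was higher in knockout cells. This NADP-dependent mitochondrial isocitrate dehydrogenase is distinct from the Idh3 enzyme. Its libraries held 3873 and 3741 normalized reads in wild-type normoxia, 3914, 3729 and 3742 in wild-type hypoxia, 4427, 4448 and 4451 in knockout normoxia, and 4420, 4309 and 4412 in knockout hypoxia. All 6 knockout libraries were above all 5 wild-type libraries, where 10.3% of tested genes did not overlap in either direction. Idh2 rose by 0.223 in normoxia (SE 0.040, limma adjusted p = 0.00334), by 0.207 in hypoxia (SE 0.036, limma adjusted p = 0.00205) and by 0.215 averaged (SE 0.027, limma adjusted p = 7.75e-05). Averaged over oxygen levels, 2 of the 9 were called higher in knockout cells and 0 lower, against 17.2% of all genes in either direction. The median of the 9 was 0.082. Sdhd was called at 0.125 (limma adjusted p = 0.0463) and lost the call in 13 (0.0505 to 0.117), among them those without any 1 library other than replicate 3 of knockout normoxia, replicate 1 of wild-type hypoxia and replicate 3 of knockout hypoxia. Differentiated muscle markers were higher and fibroblast markers lower in knockout cells, as given above, 3 of 9 myoblast markers (Myf5, Itga7 and Chrna1) were called higher and Acta2 lower averaged over oxygen levels, and their part in the Idh2 result was not tested.

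Genes that feed carbon into the cycle or draw it out differed one by one. Of 8 genes of anaplerosis and 2-oxoglutarate supply, 1 was called in hypoxia in each genotype, against 2.17% (wild-type) and 4.09% (knockout) of all genes. This gene, higher in both genotypes, was the mitochondrial malic enzyme Me2. It held 1115 to 1252 normalized reads in the 5 normoxia libraries and 1425 to 1489 in the 6 hypoxia libraries, and rose by 0.309 in wild-type (SE 0.062, limma adjusted p = 0.0167), 0.296 in knockout cells (SE 0.055, limma adjusted p = 0.00747) and 0.303 averaged. Pyruvate carboxylase, Pcx, did not pass, at 0.328 averaged (SE 0.095, limma adjusted p = 0.0533). The wild-type Me2 call was lost in 5 alternatives, with adjusted p of 0.056 to 0.234, among them those without the second wild-type normoxia, the second wild-type hypoxia or the third wild-type hypoxia library. Averaged over oxygen levels, the alanine transaminase Gpt2 was 0.237 and the proline synthesis enzyme Aldh18a1 0.166 higher in knockout cells, and glutamate dehydrogenase Glud1 was 0.157 lower (limma adjusted p of 0.00494, 0.0174 and 0.0218). That made 2 of 8 called higher and 1 lower, against 17.2% of all genes in either direction. The Aldh18a1 call was lost in 3 alternatives (adjusted p 0.0512 to 0.0673), among them those without either wild-type normoxia library. Glud1 lost its call in 5 (0.0507 to 0.078), without either wild-type normoxia, the first knockout normoxia or the second wild-type hypoxia library and without the variance trend. In hypoxia alone Gpt2 (0.232) and Glud1 (-0.230) were also called between genotypes, and lost the call in 12 (0.0516 to 0.176) and 5 (0.0616 to 0.0996) alternatives.

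Of 7 cytosolic counterparts and genes of citrate use, 0 passed limma's test in any of the 7 comparisons. Over all genes 0.00679% (difference between the hypoxia effects) to 17.2% (genotypes averaged over oxygen levels) were called in these comparisons. At an unadjusted p under 0.05 there was 1 in each of 4 comparisons, where 2584 to 4422 of the 14729 tested genes passed. There edgeR called 0 throughout, and DESeq2 called Me1 in knockout hypoxia and in the averaged hypoxia comparison. In averaged hypoxia Me1, the cytosolic malic enzyme, had the smallest adjusted p of the list (-0.172, limma adjusted p = 0.0677), followed by Aco1 (-0.063), Acss2 (0.244) and the citrate carrier Slc25a1 (0.075). Of 4 assembly factors of succinate dehydrogenase, 0 passed in any comparison, against the same shares of all genes, and edgeR and DESeq2 called 0. Sdhaf1 alone had an unadjusted p under 0.05, in knockout hypoxia and in averaged hypoxia, where 2584 and 3213 of all tested genes did.

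Closer to Dlst, 5 genes of lipoate assembly and accessory factors of its complex were counted. Of these, 1 was called in averaged and 1 in knockout hypoxia, where 7.45% and 4.09% of all genes were. Dhtkd1, which encodes an E1 that works with Dlst in 2-oxoadipate oxidation, held 60.5 to 91.2 normalized reads in normoxia and 41.8 to 61.5 in hypoxia. It fell by 0.585 averaged over genotypes (SE 0.130, limma adjusted p = 0.0145), a call lost without the first wild-type normoxia library (0.0717). In knockout cells it fell by 0.728 (limma adjusted p = 0.0310), and 8 alternatives lost that call (0.0515 to 0.123), among them those without each of the 3 knockout normoxia libraries or the first or second knockout hypoxia library. The other 4, Lias, Lipt1, Lipt2 and Mrps36, did not pass, and the list median was -0.138 averaged. Of 5 genes of succinyl-CoA supply and use, Alas1, which draws succinyl-CoA into haem synthesis, rose by 0.332 in knockout hypoxia (limma adjusted p = 0.00552) and by 0.249 averaged (limma adjusted p = 0.00334). The other 4 were not called in any comparison. Over all genes, 4.09% were called in knockout hypoxia and 7.45% averaged.

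Of 9 regulators of nuclear genes for mitochondrial proteins, 1 was called in averaged hypoxia, where 7.45% of all genes were. Another 1 was called between genotypes in normoxia, where 9.09% of all genes were. Myc rose by 0.226 in averaged hypoxia (SE 0.054, limma adjusted p = 0.0208), a call lost in 4 alternatives (adjusted p 0.0503 to 0.0883): nuclear-total scaling, limma without trend, and without the second wild-type normoxia or the second knockout hypoxia library. Tfam, the packaging factor of mitochondrial DNA, was 0.402 higher in knockout normoxia (SE 0.107, limma adjusted p = 0.0310), a call lost in 4 alternatives (adjusted p 0.0815 to 0.35): limma without trend, the compared groups alone, and without the second wild-type normoxia or the first knockout normoxia library. Without that wild-type library the Tfam difference was 0.207. Nrf1, Gabpb1 and Esrra, with averaged hypoxia differences of -0.173, -0.097 and -0.084, did not pass. Gabpa, which encodes a factor that binds the ETS and GABP motif marked in the Dlst promoter, differed by 0.009 in averaged hypoxia (limma adjusted p = 0.906).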

How the data were processed

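Total RNA libraries were made with a stranded kit from 1 µg of RNA, per the labels' protocols. The mm10 build, STAR, bcl2fastq, RSEM, HTSeq, Picard and DESeq2 appear in the submitters' processing notes, and which tool counted reads is not given in the sources used here. As deposited, the table holds signal values for 22104 genes, each a read count that the authors divided by the library's size factor, and 0 columns were left unused. Whole reads were recovered for 100% of values within 0.01 read. Positions, lengths and symbols came from GENCODE M21 on GRCm38, and a symbol was found for 21805 genes. Lengths per gene are the union of exons of its basic-set coding transcripts.

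Values were transformed as log2(value + 1), a scale that understates changes of low genes, for the 14729 genes with at least 10 in at least 2 libraries. One linear model with 4 groups was fitted in limma 3.58.1 (R 4.3.3) with a variance trend (7 residual and 6.35 prior degrees of freedom). From it came 7 two-sided comparisons with Benjamini-Hochberg adjustment over all tested genes. An adjusted p under 0.05 made a call, and the words rose and fell are kept for calls. Alternatives were other pseudocounts (0.5 and 5), no filter or a minimum of 50, TMM and nuclear-total scaling, edgeR 4.0.16 and DESeq2 1.42.0 on recovered reads, limma without trend, the compared groups alone, and each library left out. The fit was also run on simulated counts with shifts larger than any member's difference, so that run does not show its sensitivity to changes of this size. Replicate pairs differed by more than counting error (chi-square over degrees of freedom 4.33 to 20.9), so none was counted as a duplicate.

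All 9 members are named, and from each other list of metabolic genes and regulators the genes called and up to 4 others, ranked by adjusted p in averaged hypoxia. Outside that rule, all 9 other cycle genes and Gabpa, whose motif was searched, are named, and that ranking comparison and the marker genes named were chosen after their values were seen. The members and lists were chosen with earlier results of these data known, and 1 listed gene is not reported here. Descriptions in Python used pandas 2.3.3.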

Additional observations from a re-analysis of the deposited data

How the results depend on the processing

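The count of members called was the same in every alternative in 5 of the 7 comparisons, namely wild-type hypoxia, the 3 genotype comparisons and the difference between the hypoxia effects. In knockout hypoxia it went from 1 to 0 with limma without trend and with the groups of the comparison alone, and was 0 to 1 when each of the 11 libraries was left out. In averaged hypoxia it went from 1 to 4 with scaling to the nuclear-encoded total, a setting that lowers the median of all genes, and stayed at 1 elsewhere. The count test run on recovered reads, edgeR, called 715 higher and 374 lower genes in averaged hypoxia, and DESeq2 713 and 398, against 720 and 377 with limma. Of 1296 recomputed member differences, 67 changed sign, and in 0 of these did the recomputed or reported value pass the test. By scaling to the nuclear-encoded total, knockout hypoxia became -0.024 for Cs and -0.021 for Suclg1, and genotype in normoxia -0.001 for Dlst. For Fh1 the averaged genotype difference of 0.001 became -0.002 with TMM or nuclear-total scaling and -0.003 with edgeR. The cause of these changes was not tested. When 1 library was left out, the differences that changed sign spanned the following ranges. For wild-type hypoxia the range was -0.119 to 0.021 for Ogdh. For knockout hypoxia the range was -0.003 to 0.023 for Cs, -0.006 to 0.084 for Ogdh and -0.005 to 0.027 for Suclg1. For averaged hypoxia the range was -0.043 to 0.027 for Ogdh. For genotype in normoxia the range was -0.035 to 0.051 for Idh3b, -0.079 to 0.035 for Idh3g, -0.004 to 0.01 for Dlst and -0.047 to 0.087 for Fh1. For genotype in hypoxia the range was -0.012 to 0.063 for Idh3a, -0.014 to 0.043 for Idh3b, -0.035 to 0.018 for Idh3g, -0.045 to 0.082 for Ogdh and -0.006 to 0.028 for Suclg1. For genotype averaged over oxygen levels the range was -0.013 to 0.03 for Idh3b, -0.042 to 0.015 for Idh3g, -0.064 to 0.006 for Ogdh and -0.032 to 0.035 for Fh1. For the difference between the hypoxia effects the range was -0.048 to 0.027 for Idh3a, -0.042 to 0.044 for Idh3b, -0.041 to 0.073 for Idh3g, -0.085 to 0.022 for Sucla2 and -0.104 to 0.03 for Fh1. No paired analysis was possible because the labels give replicates no numbers of their own that link libraries across groups. Depth limits the precision to a counting error of 1.1 to 3.23% per value, and wild-type normoxia rests on 2 libraries, so leaving out 1 assumes that the other varies like the remaining groups.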
